A study of Mus musculus with 10 samples.

Results

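The immediate early genes of the Egr, Nr4a and Ier families and Myc were examined in mouse kidney after ischaemia and reperfusion. The 10 genes, Egr1, Egr2, Egr3, Nr4a1, Nr4a2, Nr4a3, Ier2, Ier3, Ier5 and Myc, were chosen by gene symbol, matched through the Ensembl identifier, from the 55359 genes of the deposited table. Kidney RNA came from male mice in 2 groups. In the first group, called IRI below, the kidney underwent ischaemia for 30 min and was then reperfused for 24 h (5 libraries). The second group, called sham below, had sham surgery as control (5 libraries). Age, strain, genotype and diet are not in the labels used here, and neither is the interval between sham surgery and sampling. No label says that each library came from a separate mouse, so the p-values measure the spread between libraries.

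In the deposited coordinates (GRCm39), Egr1 lies on chromosome 18 from 34992876 to 34998037, Egr2 on chromosome 10 from 67371305 to 67378018 and Egr3 on chromosome 14 from 70314652 to 70320063, all on the plus strand. Nr4a1 lies on chromosome 15 from 101152150 to 101172676 (plus), Nr4a2 on chromosome 2 from 56996842 to 57014015 (minus) and Nr4a3 on chromosome 4 from 48045153 to 48086447 (plus). Ier2 lies on chromosome 8 from 85387960 to 85389483 (minus), Ier3 on chromosome 17 from 36132576 to 36133815 (plus) and Ier5 on chromosome 1 from 154972107 to 154975382 (minus). Myc lies on chromosome 15 from 61857240 to 61862223 (plus). No other gene of the table overlapped any of them in coordinates.

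Immediate early genes are transcribed within minutes of a stimulus, from factors already present in the cell and without new protein synthesis, and their transcripts are usually short-lived. Growth factor signals reach many of them through the ERK pathway and serum response factor with its ternary complex partners, and cyclic AMP and calcium signals through CREB. Egr proteins are zinc finger activators, Nr4a proteins are orphan nuclear receptors, the Ier proteins are small regulators of kinase, phosphatase and stress signalling, and MYC drives growth and ribosome production. In kidney, Egr1 and related genes are known to be induced early after ischaemia.

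Levels are given as FPKM, counts scaled by exonic length and by library total, which allows genes to be compared per length. Fold changes are edgeR estimates on counts with TMM scaling, given as log2 fold change of IRI over sham ± SE, and a gene was called at a Benjamini-Hochberg adjusted p under 0.05 over all genes tested. The filter on low values asked for 1 FPKM in 5 libraries. Of the 10 members 7 met it, Egr2 only through its 5 IRI libraries, and Egr3, Nr4a2 and Nr4a3 were taken from the same fit with no filter. Library totals were 13147899 to 18603272 counts, and TMM factors were 0.896 to 0.940 in sham and 0.998 to 1.14 in IRI. Mitochondrial rRNA took 2.31% of the counts of IRI replicate 1 and 0.214% to 0.450% of those of each other library, and the fold changes of the members highest in it are also given without it. In bulk tissue, more cells of a type and more RNA per cell cannot be told apart.

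By edgeR, 9 of 10 members rose in IRI and 0 fell, and Egr3 did not pass the threshold. The share of all genes called higher was 34.5% with the filter and 19.3% with no filter. Log2 fold changes ran from 1.47 (Egr3) to 3.39 (Myc), with a median of 2.02 over the 10 members with no filter, against 0.057 over all 30454 genes of that fit. In 7 of 10 members every IRI library lay above every sham library in FPKM, which was so for 19.4% of all genes with counts. The exceptions were Egr3, Nr4a2 and Nr4a3, the members of lowest mean level in IRI. FPKM leaves out the TMM factors, which were lower in sham than in IRI, so this count depends on the scaling. For Egr1 the separation is not kept with those factors.

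**Figure D1:**
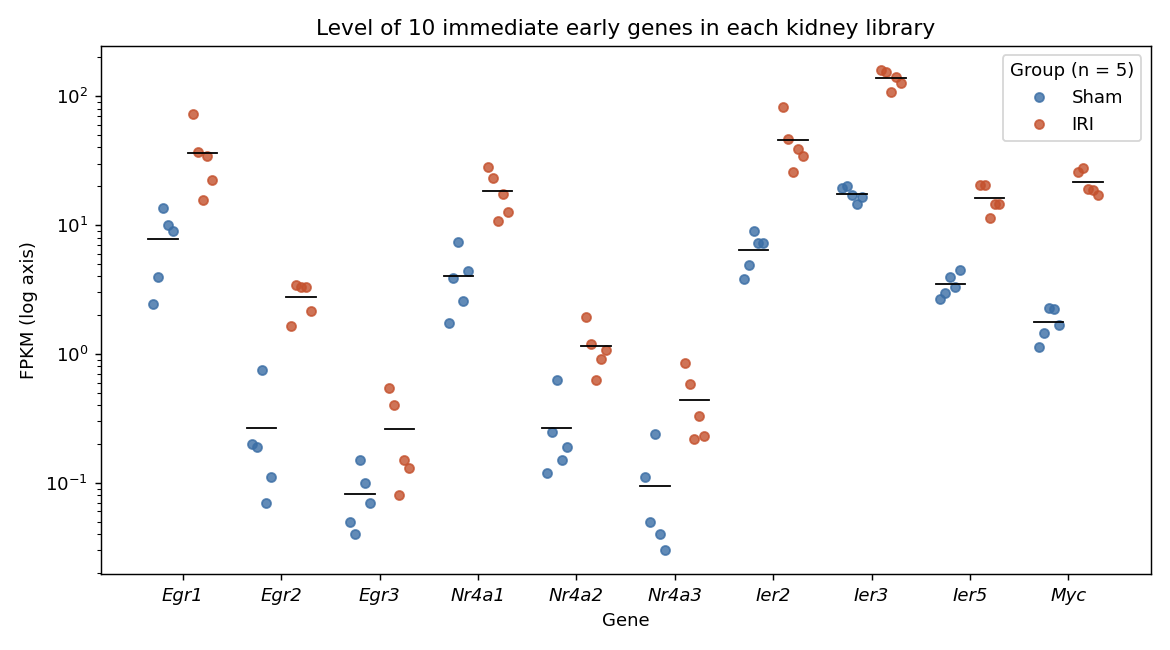
FPKM of the 10 members in each library, on a log axis; points are libraries in replicate order (5 sham, 5 IRI) and bars are group means. Ier3 is highest in both groups, from 108 to 160 FPKM in IRI, and only Egr3, Nr4a2 and Nr4a3 have sham points that reach the IRI points.

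In IRI the order of mean levels per length was Ier3, Ier2, Egr1, Myc, Nr4a1, Ier5, Egr2, Nr4a2, Nr4a3 and Egr3, from 138 down to 0.260 FPKM. Ranges of neighbours in that order overlapped, except between Ier3 and Ier2 and between Ier5 and Egr2. In sham the order was Ier3, Egr1, Ier2, Nr4a1, Ier5, Myc, Nr4a2, Egr2, Nr4a3 and Egr3, from 17.5 down to 0.0820 FPKM. There the ranges did not overlap between Ier3 and Egr1, between Ier5 and Myc, and between Myc and Nr4a2.

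The Egr family was led by Egr1, the zinc finger factor that is the usual marker of recent ERK and serum response factor activity. Egr1 stood at 2.43, 3.96, 13.66, 10.07 and 8.97 FPKM across the sham libraries (replicates 1 to 5) and at 72.86, 36.84, 15.64, 34.33 and 22.50 FPKM across the IRI libraries in the same order. All IRI libraries lay above the sham libraries, but the gap between sham replicate 3 and IRI replicate 3 was narrow. The rise was 2.01 ± 0.50 (edgeR adjusted p = 0.00359), with means of 7.82 ± 4.59 and 36.4 ± 22.1 FPKM (SD, n = 5 each). Without IRI replicate 1, the highest library, it was 1.53 (edgeR adjusted p = 0.00682).

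Egr2, known for its part in Schwann cell myelination and in macrophage and lymphocyte activation, was scarce in sham. Its FPKM was 0.20, 0.19, 0.75, 0.07 and 0.11 across the sham libraries (replicates 1 to 5) and 1.66, 3.45, 3.28, 3.31 and 2.17 across the IRI libraries in the same order. The groups did not overlap, and IRI replicate 1, highest for Egr1, was the lowest IRI library for Egr2. Egr2 rose by 3.12 ± 0.48 (edgeR adjusted p = 1.14e-04), on 73 counts over the sham group and 755 over IRI, and by 4.00 without sham replicate 3.

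Egr3, a zinc finger factor with known roles in lymphocytes and muscle spindles, was near the limit of detection. Sham replicates 1 to 5 held 3, 3, 11, 6 and 5 counts (0.05, 0.04, 0.15, 0.10 and 0.07 FPKM), and IRI replicates 1 to 5 held 39, 23, 6, 11 and 10 counts (0.54, 0.40, 0.08, 0.15 and 0.13 FPKM). Only IRI replicates 1 and 2 stood clear of the sham libraries. The estimate was 1.47 ± 0.57 (edgeR adjusted p = 0.0518). It passed the threshold under library totals (1.66, adjusted p = 0.0233), by DESeq2 (1.47, adjusted p = 0.0449) and without sham replicate 3 (1.81) or IRI replicate 3 (1.70), 4 (1.62) or 5 (1.64), and fell to 0.93 without IRI replicate 1. Without IRI replicate 1 the adjusted p was 0.222.

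The upstream sequence of Egr2 is printed because it was the member of the Egr family with a promoter window in the table used here and had the largest fold change of that family. It ends at a RefSeq start site of Egr2 (build GRCm38.p6, which differs from that of the deposited table). Capitals mark a CArG box, the site known to bind serum response factor, and matches to TGACG, the core of a CREB site, on either strand.
Egr2, chr10:67537619-67537868, plus strand: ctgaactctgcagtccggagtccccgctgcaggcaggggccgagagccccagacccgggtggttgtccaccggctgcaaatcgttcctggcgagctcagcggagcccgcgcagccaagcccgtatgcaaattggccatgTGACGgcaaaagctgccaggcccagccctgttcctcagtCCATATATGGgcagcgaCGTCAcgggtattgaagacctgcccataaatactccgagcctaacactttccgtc
The CArG box lay 72 bases upstream of the start, between the 2 TGACG matches. Of all 32851 windows of 250 bases upstream of a RefSeq start, 1.47% held a CArG box and 17.8% held TGACG. Of the 5 Egr2 windows, 4 held a CArG box, 3 of these overlap and share the same one, and the other of the 4 held no TGACG. The remaining window held neither. A match describes letters in the window only, and whether these sites were used in these kidneys was not measured.

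The Nr4a family was led by Nr4a1 (NUR77), a nuclear receptor without a known natural ligand that acts in stress, apoptosis and metabolic control. Nr4a1 stood at 1.75, 3.85, 7.41, 2.59 and 4.41 FPKM across the sham libraries (replicates 1 to 5) and at 28.27, 23.21, 10.70, 17.44 and 12.66 FPKM across the IRI libraries in the same order. The groups did not overlap, with sham replicate 3 nearest to IRI. It rose by 1.97 ± 0.38 (edgeR adjusted p = 5.78e-04), and by 1.71 without IRI replicate 1.

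Nr4a2 (NURR1), known for its role in dopamine neurons and in inflammatory cells, stood at 0.12, 0.25, 0.63, 0.15 and 0.19 FPKM across the sham libraries (replicates 1 to 5) and at 1.94, 1.20, 0.63, 0.92 and 1.08 FPKM across the IRI libraries in the same order. Sham replicate 3 equalled IRI replicate 3, and the other 4 sham libraries lay below all IRI libraries. It rose by 1.88 ± 0.40 (edgeR adjusted p = 8.49e-04), by 2.43 without sham replicate 3 and by 1.55 without IRI replicate 1 (edgeR adjusted p = 0.00227). Nr4a3 (NOR1) stood at 0.11, 0.05, 0.24, 0.04 and 0.03 FPKM in sham and at 0.85, 0.58, 0.22, 0.33 and 0.23 FPKM in IRI, in replicate order. Sham replicate 3 exceeded IRI replicates 3 and 5. The rise was 1.99 ± 0.52 (edgeR adjusted p = 0.00461) on 46 counts over sham and 209 over IRI. It was 2.67 without sham replicate 3 and 1.55 without IRI replicate 1 (edgeR adjusted p = 0.0164).

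The upstream sequences of the Nr4a genes are printed because all of them held 4 matches to TGACG (in capitals, either strand) in the 250 bases before a RefSeq start (GRCm38.p6), and because all 3 genes rose. The Nr4a3 run stops before the first base that a GENCODE transcript of the gene covers, so 3 of its 4 matches are shown.
Nr4a1, chr15:101266596-101266845, plus strand: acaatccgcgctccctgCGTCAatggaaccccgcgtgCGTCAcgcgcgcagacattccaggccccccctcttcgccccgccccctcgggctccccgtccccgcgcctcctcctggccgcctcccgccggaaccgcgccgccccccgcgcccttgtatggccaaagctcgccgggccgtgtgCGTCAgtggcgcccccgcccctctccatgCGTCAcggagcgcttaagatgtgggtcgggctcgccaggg
Nr4a2, chr2:57124004-57124253, minus strand: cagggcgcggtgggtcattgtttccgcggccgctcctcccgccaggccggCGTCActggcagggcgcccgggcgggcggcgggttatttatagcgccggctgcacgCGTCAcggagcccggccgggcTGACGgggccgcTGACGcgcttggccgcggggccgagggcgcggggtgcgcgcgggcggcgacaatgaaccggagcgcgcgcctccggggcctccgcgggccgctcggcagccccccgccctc
Nr4a3, chr4:48045055-48045152, plus strand: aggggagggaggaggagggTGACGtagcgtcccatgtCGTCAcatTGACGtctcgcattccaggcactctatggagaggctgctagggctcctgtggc
The full palindrome TGACGTCA was in none of these windows and in 1.55% of all windows. The Egr-type site GCGNGGGCG was found once in the windows of Nr4a1 and Nr4a2, and in 4.70% of all windows. The share of all windows that held at least 1 TGACG was 17.8%, as given for Egr2, and the share that held 4 was not counted.

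Of the Ier genes, which are related by name and only partly by sequence, Ier3 was the most abundant. Ier3 (IEX-1) is an inhibitor of a phosphatase that acts on ERK and AKT and modulates cell death. It stood at 19.34, 20.01, 17.08, 14.67 and 16.41 FPKM across the sham libraries (replicates 1 to 5) and at 159.68, 152.86, 108.36, 140.36 and 126.53 FPKM across the IRI libraries in the same order. The lowest IRI value, 108, lay far above the highest sham value. Ier3 rose by 2.73 ± 0.14 (edgeR adjusted p = 5.45e-08), and by 2.63 without IRI replicate 1, with the smallest SE of the 10 members and means of 17.5 ± 2.18 and 138 ± 20.6 FPKM (SD, n = 5 each).

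Ier2, a nuclear protein that shares a domain with Ier5, stood at 3.84, 4.94, 9.04, 7.26 and 7.20 FPKM across the sham libraries (replicates 1 to 5) and at 82.28, 46.86, 25.63, 38.72 and 34.26 FPKM across the IRI libraries in the same order. The groups did not overlap, and IRI replicate 1 lay well above the other IRI libraries. Ier2 rose by 2.60 ± 0.34 (edgeR adjusted p = 3.23e-05), and by 2.21 without IRI replicate 1. Ier5, which binds HSF1 and protein phosphatase 2A, stood at 2.65, 2.99, 3.98, 3.33 and 4.45 FPKM in sham and at 20.38, 20.48, 11.41, 14.59 and 14.51 FPKM in IRI, in replicate order. It rose by 1.98 ± 0.20 (edgeR adjusted p = 4.61e-06), with no overlap between groups.

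The upstream sequence of Ier3 is shown because Ier3 had the highest level of the members and a known response to NF-kB. Capitals mark the 1 match to an NF-kB site, 92 bases before the RefSeq start (GRCm38.p6), and the run stops before the first base of a GENCODE transcript.
Ier3, chr17:35821463-35821683, plus strand: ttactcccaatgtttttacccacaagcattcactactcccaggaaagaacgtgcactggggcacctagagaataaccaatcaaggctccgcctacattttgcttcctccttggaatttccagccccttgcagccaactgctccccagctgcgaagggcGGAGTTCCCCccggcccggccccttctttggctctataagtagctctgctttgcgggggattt
An NF-kB site was found in 3.90% of all windows. The Ier3 window held no TGACG and no CArG box, which says only that these letters are not in it. The window of Ier5, which also rose, is not printed and held no CArG box, NF-kB site, TGACG or Egr-type site.

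Myc had the largest fold change of the members. MYC pairs with MAX to drive genes of growth, nucleotide synthesis and ribosome production. Myc stood at 1.14, 1.46, 2.27, 2.23 and 1.69 FPKM across the sham libraries (replicates 1 to 5) and at 26.02, 27.57, 18.93, 18.76 and 17.25 FPKM across the IRI libraries in the same order. The groups did not overlap, and sham replicates 3 and 4 were the highest of the sham libraries. Myc rose by 3.39 ± 0.22 (edgeR adjusted p = 2.14e-07). Of the 13324 filtered genes, 0.991% had a larger log2 fold change than Myc and 1.81% a larger one than Ier3. With no filter these shares were 2.54% for Myc and 4.96% for Ier3, and 3.28% for Egr2.

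**Figure D2:**
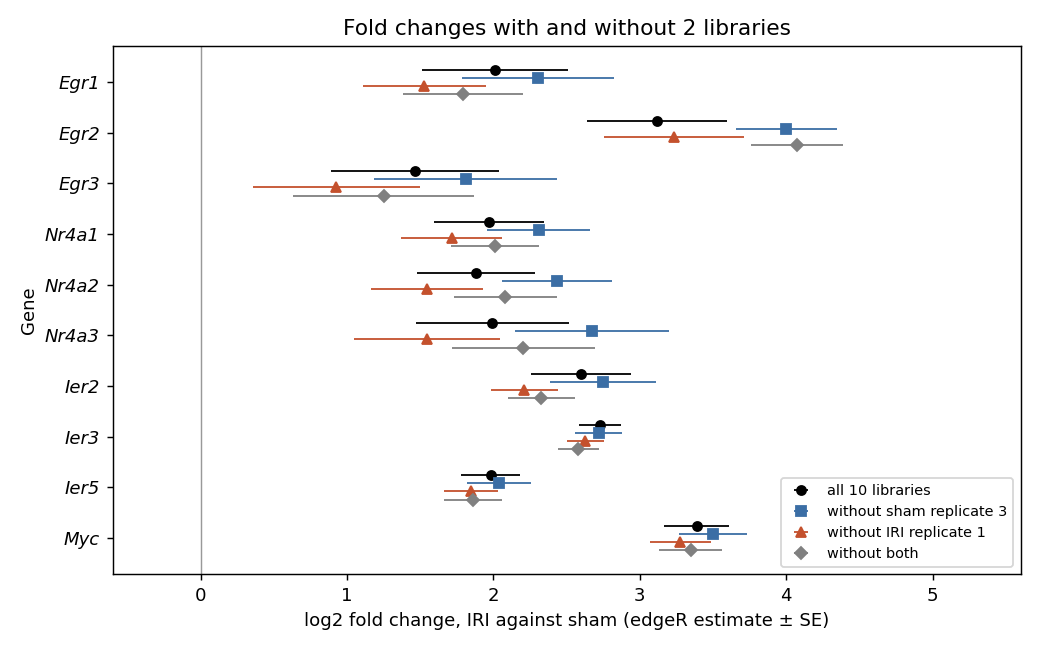
Log2 fold change of IRI over sham for each member (edgeR estimate, bars are ± SE) with all 10 libraries and without the libraries named in the key. Egr2 moves from 3.12 to 4.00 without sham replicate 3, Egr1 from 2.01 to 1.53 without IRI replicate 1, and Ier3, Ier5 and Myc move little.

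The members deviated from their group means in the same libraries. By FPKM, sham replicate 3 was the highest sham library for 8 of 10 members, with Ier3 and Ier5 the exceptions, and replicate 1 the lowest for 6. In IRI, replicate 1 was the highest library for 7 of 10 members and replicate 3 the lowest for 8. Group-centred log2 CPM of Egr1, for example, was 1.00 in sham replicate 3 and -1.40 in sham replicate 1, and 1.29 and -1.03 in IRI replicates 1 and 3. Egr2 was unlike the rest in IRI, with -0.57 in replicate 1 and 0.28 in replicate 3.

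**Figure D3:**
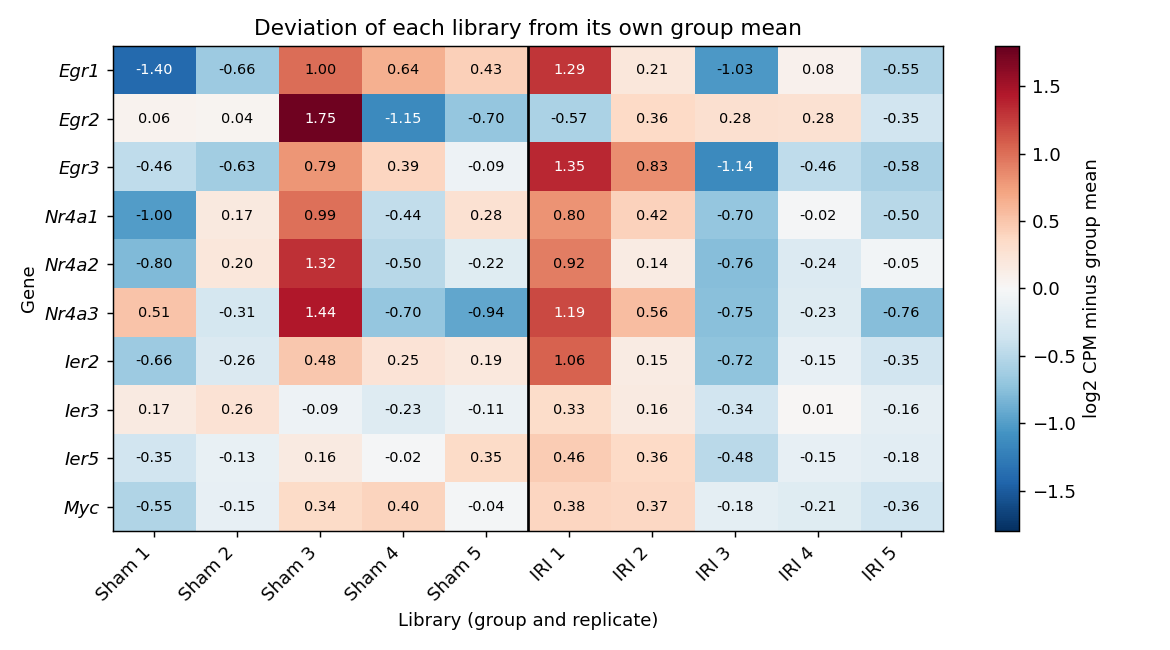
Deviation of each library from the mean of its own group, in log2 CPM with TMM scaling, for the 10 members (rows) and 10 libraries (columns, sham left of the line). Columns of sham replicate 3 and IRI replicate 1 are mostly positive (up to 1.75 and 1.35), and Egr2 is at -0.57 in IRI replicate 1.

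Across the 10 libraries and after subtraction of group means, Egr1 and Ier2 had a Pearson r of 0.96, Nr4a1 and Nr4a2 0.91, and Egr1 and Myc 0.86. Egr2 had its highest r with Nr4a3 (0.57) and an r of -0.022 with Egr1, and Ier3 reached at most 0.58 with any member. Without IRI replicate 1 (n = 9, a comparison added after seeing the data) these values were 0.98, 0.88 and 0.83, Egr2 had an r of 0.86 with Nr4a3 and 0.16 with Egr1, and Ier3 reached at most 0.42. These values describe libraries that share their sequencing depth, tissue composition and RNA quality with every other gene, and no test was made of them. Of all filtered genes, the patterns most like Egr1 by this measure were those of Rusc2 (r = 0.97), the AP-1 subunit Junb (0.96) and Ier2 (0.96). Those most like Nr4a1 were Cramp1l (0.95), Trip10 (0.94) and the kinase gene Sgk1 (0.93). Ier3 was closest to Trmt10c (0.94), Dcp1a and Rtl5 (0.93 each), and Myc to Gabpb1 (0.90), D11Wsu47e (0.90) and Gm49131 (0.89). Each was picked as among the highest of the 13324 filtered genes over only 10 libraries, so a high r follows in part from the selection. Without IRI replicate 1 the r of these 12 gene pairs was 0.88 to 0.98, but the 3 genes named for Ier3 then ranked 12, 13 and 17.

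Several cell type markers and quality measures moved with the libraries or the groups, and their part in the results above was not tested. Summed FPKM of 14 neutrophil markers was 23.8 to 37.6 in sham and 58.7 to 142 in IRI, with the highest value in IRI replicate 1. The sham sum was mostly G0s2, which was not called (means of 27.9 FPKM in sham and 26.9 in IRI). The next highest marker in sham, S100a9, had means of 0.954 and 26.1 FPKM. With no filter 12 of the 14 markers were higher in IRI, 0 lower and 2 not called, where 19.3% of all genes were higher. The markers Ly6g, Ngp and Camp were at 0 in all sham libraries and low in IRI, with 13, 72 and 9 counts over the group. Their IRI means were 0.162, 0.73 and 0.144 FPKM. Ltf, the other marker not called, had a mean of 0.12 FPKM in each group. Summed FPKM of 16 monocyte and macrophage markers was 51.9 to 84.7 in sham and 100 to 172 in IRI, lowest in IRI replicate 1 (6 higher, 3 lower, 7 not called). The 12 B, T and NK cell markers summed to 6.38 to 10.4 FPKM in sham and 1.71 to 3.83 in IRI (0 higher, 8 lower, where 18.0% of all genes were lower with no filter). All 12 proximal tubule markers were lower, summing to 3664 to 4573 FPKM in sham and 332 to 1791 in IRI. Sham replicate 3 had the lowest sham sum of these (3664) and IRI replicate 1 the highest IRI sum (1791).

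For the remaining compartments only the podocyte sums did not overlap between groups. Summed FPKM of 12 endothelial markers was 137 to 192 in sham and 180 to 281 in IRI (7 higher, 1 lower). For 12 fibroblast and pericyte markers it was 71.9 to 96.4 and 95.1 to 345 (4 higher, 1 lower). For 12 thick limb and distal nephron markers it was 1122 to 2195 and 1804 to 3351 (4 higher, 5 lower). The largest part of that sum was Umod, with means of 903 FPKM in sham and 1867 in IRI. The 5 lower markers included Slc12a1 (means of 191 and 65.8 FPKM). For 8 podocyte markers the sum was 65.3 to 113 and 166 to 203 (5 higher, 0 lower). These calls are with no filter, where 19.3% of all genes were higher and 18.0% lower. All distal nephron and podocyte markers met the filter and had the same calls with it, where the shares of all genes were 34.5% and 32.4%.

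Within families, the question was whether related genes rose to the same extent. In each library the log2 ratio of FPKM + 0.1 was taken for 9 pairs, and group means were compared by exact permutation (two-sided, every assignment of the libraries), with p-values adjusted over the 9 pairs. Ier3 rose more than Ier5, with a difference of 0.78 on the log2 scale and no overlap between groups (exact permutation p = 0.00794, the smallest possible; adjusted p = 0.0357, n = 5 each). Ier2 also rose more than Ier5, by 0.56 (exact permutation p = 0.0159, adjusted p = 0.0357). Ier5 took 12.6% ± 2.26 of summed Ier FPKM in the sham libraries but 8.15% ± 0.70 after IRI (SD, n = 5). Ier2 and Ier3 differed by -0.22 (exact permutation p = 0.508).

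In the Egr family, Egr1 exceeded Egr3 on this ratio by 1.42 (exact permutation p = 0.00794, adjusted p = 0.0357) and Egr2 exceeded Egr3 by 2.34 (exact permutation p = 0.0159, adjusted p = 0.0357). The added 0.1 FPKM compresses the rise of scarce genes by construction, and Egr3 stood at 0.04 to 0.15 FPKM in sham. By edgeR, Egr1 rose by 2.01 and Egr3 by 1.47. On the ratio, Egr1 and Egr2 differed by -0.92, within the spread of the libraries (exact permutation p = 0.214). Egr1 held 95.1% ± 3.19 of summed Egr FPKM in sham and 90.3% ± 5.25 in IRI, and Egr2 3.81% ± 2.84 and 9.09% ± 5.36 (SD, n = 5). In the Nr4a family no pair passed the threshold, with differences of 0.41 for Nr4a1 over Nr4a2, 0.80 for Nr4a1 over Nr4a3 and 0.39 for Nr4a2 over Nr4a3 (adjusted exact permutation p = 0.131, 0.0571 and 0.235). Nr4a3, at 0.03 to 0.24 FPKM in sham, is compressed in the same way. By edgeR, Nr4a1 rose by 1.97 and Nr4a3 by 1.99. Nr4a1 held 91.8% ± 2.81 of summed Nr4a FPKM in sham and 92.1% ± 1.20 in IRI. None of the 4 calls held with a pseudocount of 0.01 FPKM (adjusted exact permutation p = 0.0714 each), where Egr1 over Egr3 was 0.93, and none held without IRI replicate 2, 3, 4 or 5. The adjusted p of a pair also depends on the p-values of the other pairs. The Ier genes were at 2.65 FPKM or more in every library, far above either pseudocount. Of the 9 pairs, 2 were called without sham replicate 1 or 2 or IRI replicate 1, 3 without sham replicate 4 and 6 without sham replicate 5.

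**Figure D4:**
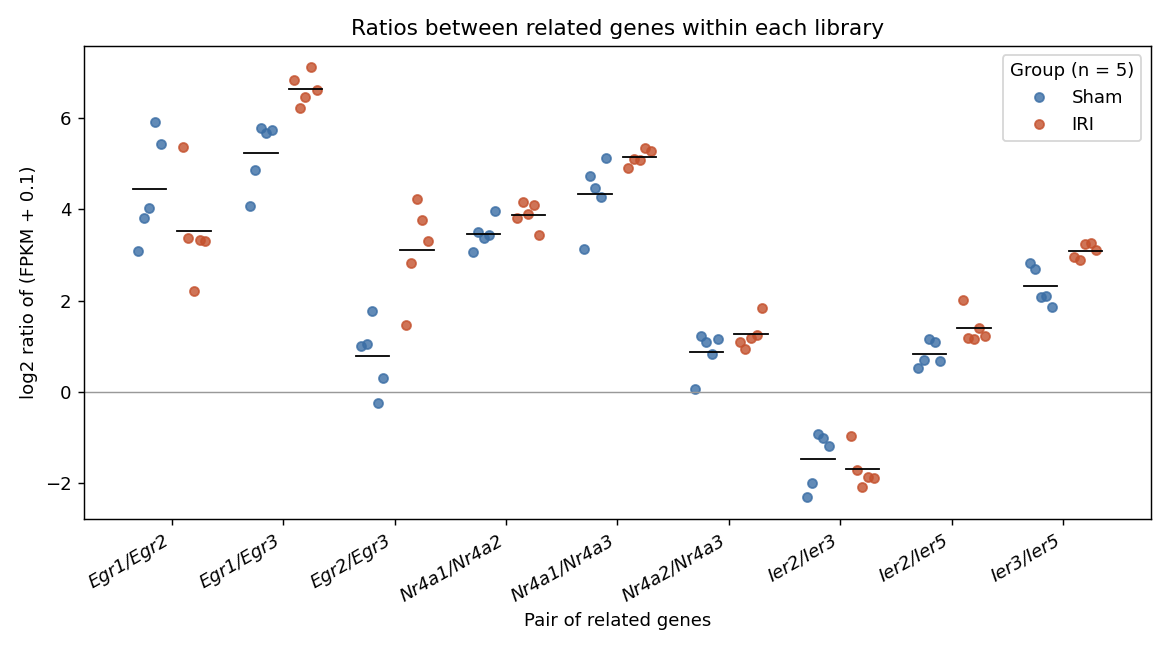
Log2 ratio of FPKM + 0.1 between related genes in each library; points are libraries (5 sham, 5 IRI) and bars group means. The IRI points of Ier3/Ier5 and Egr1/Egr3 lie above all sham points, while those of Nr4a1/Nr4a2 overlap them.

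Other immediate early genes outside these families also rose. Of 35 listed, 33 passed the filter, and 32 of these were higher, 0 lower and 1 not called (median 2.36, against 0.047 over all tested genes, of which 34.5% were higher and 32.4% lower). With no filter 33 of 34 with counts were higher (median 2.39, against 0.057 over all genes of that fit, of which 19.3% were higher). Fosl1, an AP-1 subunit, rose by 7.69 ± 0.51 (edgeR adjusted p = 2.41e-07). It had 3 counts over sham and 878 over IRI, a ratio per library total of 289 (95% counting interval 98.7 to 1405). That interval covers counting error in pooled counts only and leaves out the spread between libraries. Atf3, a stress-induced repressor, rose by 5.02 ± 0.57, and Dusp5, a nuclear ERK phosphatase, by 4.81 ± 0.27 (edgeR adjusted p = 1.07e-05 and 9.16e-08). Fosl1, at a mean of 0.02 FPKM in sham, met the filter only through its 5 IRI libraries. Sham means of Atf3 and Dusp5 were also under 1 FPKM (0.916 and 0.632). The filtered count therefore includes genes kept by their level in IRI. The kinase gene Sik1 did not pass the test (0.18 ± 0.16), and Egr4, the remaining Egr gene, had 0 counts in all 10 libraries. The summed FPKM of the list was 245 to 335 in sham, highest in sham replicate 3, and 924 to 2283 in IRI, highest in IRI replicate 1.

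Transcripts of upstream kinases and factors changed less. Of 19 listed, all in the fit, 13 were higher, 2 lower and 4 not called (median 0.48). Over all tested genes 34.5% were higher and 32.4% lower (median 0.047). The serum response factor coactivator Mrtfb (0.97 ± 0.12), the ternary complex factor Elk4 (0.97 ± 0.14) and the cyclic AMP response modulator Crem (0.95 ± 0.15) rose. Mapk14, which encodes p38 alpha, fell by 0.81 and Map2k2 by 0.36 on the log2 scale (edgeR adjusted p = 7.84e-06 and 0.0131). Under library totals 1 gene of this list was called lower.

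Among 8 direct partners and repressors, 7 passed the filter, with 4 higher, 2 lower and 1 not called (median 0.36). The shares over all tested genes were 34.5% higher and 32.4% lower (median 0.047). The Egr corepressors Nab2 (0.74 ± 0.12) and Nab1 (0.58 ± 0.11) rose, as did Ppp2r2a (0.88 ± 0.12), a regulatory subunit of protein phosphatase 2A. Rxra, the retinoid receptor that can pair with Nr4a1 and Nr4a2, fell by 0.80, and Hsf1, the heat shock factor bound by Ier5, by 0.42 (edgeR adjusted p = 1.33e-04 and 0.00257), and under library totals 1 gene of this list was called lower. Rxrb did not pass the test (-0.14 ± 0.076). Without the filter, 4 of all 8 were higher and 2 lower, where 19.3% of all genes were higher and 18.0% lower.

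Of 13 genes listed as EGR1 targets, 12 passed the filter, with 9 higher, 1 lower and 2 not called (median 1.01). All tested genes had 34.5% higher and 32.4% lower (median 0.047). The stress cytokine gene Gdf15 (3.90 ± 0.22), the hyaluronan receptor gene Cd44 (3.52 ± 0.23) and the tissue factor gene F3 (2.26 ± 0.11) rose most. Cd44, at a mean of 0.406 FPKM in sham, met the filter only through its IRI libraries. Vegfa, the angiogenic factor gene, fell by 1.45 (edgeR adjusted p = 9.44e-05). The fibronectin gene Fn1 (0.41 ± 0.24) did not pass the test. With no filter 9 were higher, 1 lower and 3 not called of 13, where 19.3% of all genes were higher and 18.0% lower. Each of these genes has other regulators, and Nab2 stands in both lists.

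The MYC network list held MAX and its partners, Mlx, Mlxip and Mlxipl, and regulators of MYC. It had 15 of 17 genes in the fit, with 10 higher, 3 lower and 2 not called (median 0.49). Shares over all tested genes were 34.5% higher and 32.4% lower (median 0.047). The kinase gene Pim1 (1.27 ± 0.31), Bin1 (1.00 ± 0.086) and Mlxip (0.97 ± 0.10) rose. Mlxipl, which encodes the glucose-responsive factor ChREBP, fell by 2.51, the MYC antagonist gene Mxi1 by 0.93 and Mlx by 0.74 (edgeR adjusted p = 5.41e-06, 6.24e-06 and 6.55e-06). Mxd1 (0.13 ± 0.18) and Mga (-0.10 ± 0.12) did not pass the test. With no filter 11 were higher, 4 lower and 2 not called of 17, where 19.3% of all genes were higher and 18.0% lower.

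Of 26 MYC target genes, 25 passed the filter, with 17 higher, 3 lower and 5 not called (median 0.68). Among all tested genes 34.5% were higher and 32.4% lower (median 0.047). The ribosome biogenesis genes Rrp12 (1.44 ± 0.14), Nop58 (1.39 ± 0.13) and Ddx21 (1.31 ± 0.11) rose. Odc1, the rate-limiting enzyme of polyamine synthesis and a classic MYC target, fell by 1.67, from 376 ± 54.0 to 138 ± 52.8 FPKM (SD, n = 5; edgeR adjusted p = 8.27e-05). Ldha fell by 0.46 and Tfrc by 0.42 (edgeR adjusted p = 0.00218 and 0.0403), and under library totals 1 gene of this list was called lower. Hspd1 (-0.44 ± 0.28) and Cdk4 (0.12 ± 0.15) did not pass the test. With no filter 17 were higher, 3 lower and 6 not called of 26, where 19.3% of all genes were higher and 18.0% lower.

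**Figure D5:**
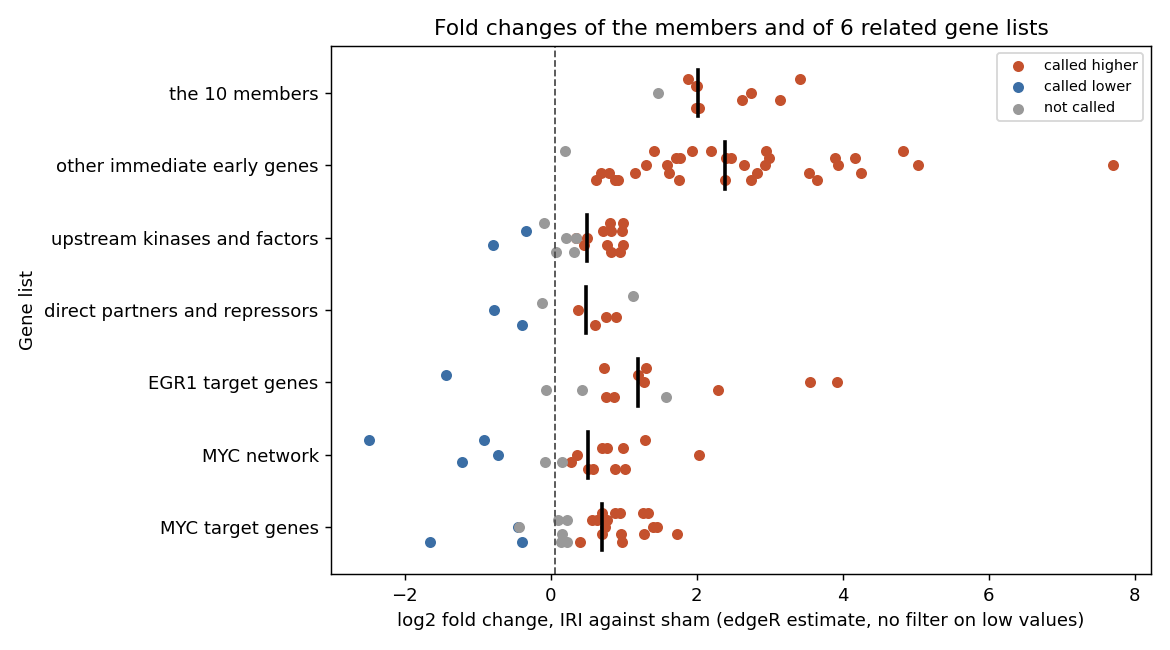
Log2 fold change of each gene with counts (points, coloured by call) for the 10 members and 6 lists, edgeR with no filter on low values; black bars are medians and the dashed line is the median of all genes (0.057). Medians are 2.02 for the members and 2.39 for the other immediate early genes, and each of the remaining lists includes genes called lower.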

How the data were processed

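Kidney mRNA of 10 libraries, 5 per group, was measured by RNA sequencing after poly(A) selection, per the labels' protocols. The deposited table gives, for every gene, a whole-number count and an FPKM value in each library. Per the submitters' processing notes, the tools were cutadapt 1.9.1, HISAT2 2.0.1 and HTSeq 0.6.1 and the build GRCm39, and no source used here states the strand setting. Deposited FPKM equalled count over exonic length and library total (100% of values, within 0.006 or 0.1%). Symbols were matched by identifier for 52083 of 55359 genes.

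Counts were tested across all genes in R 4.3.3 by the quasi-likelihood F test of edgeR 4.0.16, scaled by TMM, on 13324 genes, or 30454 with no filter. SE was taken as the absolute log2 fold change over root F. The steps were tested on simulated data. Pairs of related genes were tested by exact permutation in Python 3.11.15. Alternatives were other scalings, filters, pseudocounts, DESeq2 1.42.0, limma 3.58.1, a stricter threshold, a replicate block and leaving out each library. No 2 libraries of a group agreed within counting error (chi-square over its degrees of freedom, 8.76 to 106).

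The members and gene lists were chosen with earlier results of these data known. Named are all members, the 3 called genes of largest change in each direction and up to 2 uncalled ones of highest level per list, and the 3 genes most like the leading member of each family and Myc. Some genes that this rule names are not reported here. Upstream windows (250 bases, both strands searched) came from RefSeq, GRCm38.p6, and 6 of 10 members had one. Group-centred log2 CPM used a prior count of 2.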

Additional observations from a re-analysis of the deposited data

Results flagged for a closer look

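In the sham group, 2 values of replicate 3 stood apart from the other 4 libraries. Egr2 was at 0.75 FPKM there, with a gap to the next library of 0.809 of the group's range, and Nr4a2 was at 0.63 FPKM, with a gap of 0.745, both above Dixon's 95% critical value of 0.71 for 5 samples. Of 20 groups of 5 libraries (10 genes in 2 groups), these 2 passed, and chance flags about 1 in 20. Without that library the log2 fold changes were 4.00 for Egr2 and 2.43 for Nr4a2.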

How the results depend on the processing

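Of the 10 members, 9 or 10 were called higher and 0 reversed under every setting run. Scaling by library totals shifted the median gene by 0.25 (log2), and 66.7% of calls were then higher, against 51.6% with TMM. Genes called lower fell to 1 under library totals for upstream kinases and factors (from 2), direct partners (from 2) and MYC targets (from 3), to 1 by limma on log2(FPKM + 1) for the same lists, to 1 by limma on log2(FPKM + 0.1) for the first 2 lists, and to 1 at adjusted p under 0.01 for upstream genes. The cause was not tested. By limma on log2(FPKM + 1), which compresses low values by construction, Egr2 was at 1.57, Nr4a2 at 0.75 and Nr4a3 at 0.38, all still called, and Egr3 at 0.21, not called. Leaving out 1 library changed the unlogged fold by over 1.5 times only for Egr2 (log2 4.00) and Nr4a3 (log2 2.67), both without sham replicate 3. The log2 fold change of Egr3 went from 1.47 to 0.93 without IRI replicate 1. Without both sham replicate 3 and IRI replicate 1, chosen after seeing the data, 9 members were called, with Egr2 at 4.07 and Egr1 at 1.79.

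Same-numbered libraries did not deviate together (correlations -0.25 to 0.06), so the numbers were not taken as pairs. With a replicate block 9 members were still called, and no member's call changed. Of 9 pairs of related genes, 4 differed in response with 0.1 FPKM added, but 0 with a pseudocount of 0.01 FPKM, 7 with 1 FPKM, 0 on counts + 0.5, 0 with a replicate block (sign-flip test, smallest p 0.0625), 0 to 6 when 1 library was left out and 0 without both libraries named above. The adjusted p of each pair depends on the p-values of all 9 pairs, so a call can change through the other pairs. Beyond that the cause was not tested. Nr4a2 over Nr4a3 reversed to -0.052 with 0.01 FPKM and -0.11 on counts, Nr4a1 over Nr4a3 to -0.065 on counts, and Egr1 over Egr2 to 0.52 with 1 FPKM. Egr3 rested on 28 counts over sham and 89 over IRI, and in IRI its libraries ranged from 6 to 39 counts.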
